A study of Saccharomyces cerevisiae with 21 samples.

Results

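The comparison described here is 60 h against 48 h of a wine fermentation, the step in which ethanol rose from about 2 to about 3.5%. Its members were chosen by their titles and not by any measured value, as the 3 arrays titled 60 hour and the 3 titled 48 hour, which makes 6 of the 21 arrays of the series. Each array carries 9275 probe sets that are not controls, and 5656 genes measured on at least 1 probe set of their own were tested. A set of a gene's own is one that the annotation pairs with no other gene, although some are of a type marked as shared by similar sequences. The whole series followed *Saccharomyces cerevisiae*, baker's and wine yeast, through 15 days of fermentation at 7 times of harvest, with 3 biological replicates at each. Both groups are yeast cells harvested from the fermentation, 12 h apart, with no other treatment given, and the labels used here name neither the strain nor the grape must. Total RNA was converted to labelled RNA and hybridised to 1-colour Affymetrix yeast arrays, on which a probe set is a group of short oligonucleotides directed at 1 transcript. Levels are log2 probe set summaries, so a difference of 1 is a 2-fold difference. The arrays do not tell fewer cells of a type from less RNA per cell, and the scaling of the arrays to 1 distribution removes any change in the total RNA of a cell.

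In a wine fermentation yeast takes up ammonium and preferred amino acids first. Once these run low, the GATA factors Gln3 and Gat1 activate genes for poorer nitrogen sources, such as proline, arginine, allantoin and 4-aminobutyrate (GABA), a control called nitrogen catabolite repression. Division slows as nutrients run out: the G1 cyclins and the DNA synthesis genes driven by the factors SBF and MBF are expressed when cells commit to a new round of division, and ribosomal protein genes follow the growth rate. The factors Msn2 and Msn4 activate a broad set of protective genes under stress, ethanol included.

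Each array correlated with the other arrays of its time at a mean r of 0.986 to 0.991. The array of 48 h replicate 3 stood apart in its spike-in controls, at 9.84 against 8.37 and 8.60 on the other 48 h arrays. The 18S ribosomal RNA probe sets varied among all 3 arrays of 48 h, at 7.18, 5.86 and 8.30. The 3′ probe set of ACT1 exceeded its 5′ probe set by 1.84 ± 0.10 at 48 h and by 1.12 ± 0.12 at 60 h (SD, n = 3), a measure of how far labelled RNA extends toward the 5′ end. The difference of 0.72 had a two-sided exact permutation p of 0.1, the smallest that 3 arrays against 3 can give. The same measure was 2.30 against 1.71 for SPT15 (exact p = 0.1) and 1.47 against 1.54 for SRB4 (exact p = 0.9). Markers of mating type showed no shared change: of the genes of MATa cells 1 of 7 rose and 1 fell, and none of the 4 MATalpha, 8 haploid or 11 meiosis markers passed.

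Between 48 and 60 h, 457 of 5656 genes passed (8.08%), with 197 higher (3.48%) and 260 lower (4.60%) at 60 h. The pass mark was an adjusted p under 0.05 by limma with Benjamini-Hochberg adjustment over all genes. Among the passing genes 73 rose and 74 fell at least 2-fold. The 3 arrays of one time lay wholly on one side of the other 3 for 456 of the 457, against 2062 of all 5656 genes (36.5%). Passing itself favours such genes, so the 456 add no separate support. The permease genes of GABA and proline, UGA4 and PUT4, had the largest rises. Of 25 amino acid permeases 8 rose and 3 fell. Other rises were in 15 of 53 stress genes, 4 of 10 glycogen genes and 6 of 36 autophagy genes. Among the falls were 20 of 43 G1/S genes, a list drawn up after these values were seen, and 13 of 21 purine and one-carbon genes. So were 31 of 80 ribosomal protein genes and 40 of 91 tRNA genes. List counts here and below are to be read beside the 3.48% of all genes that rose and the 4.60% that fell. The balance of rises and falls depended on the scaling. Of the passing genes 43.1% were higher at 60 h on the deposited scale, and 35.4% with each array centred on its median. With each array centred on the median level of 5 reference genes, 90.2% were higher. That median was the level of the gene TAF10, so this scale rests on TAF10 alone. It moved the median of all genes by 0.22, and on it 111 genes rose and 12 fell.

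**Figure D1:**
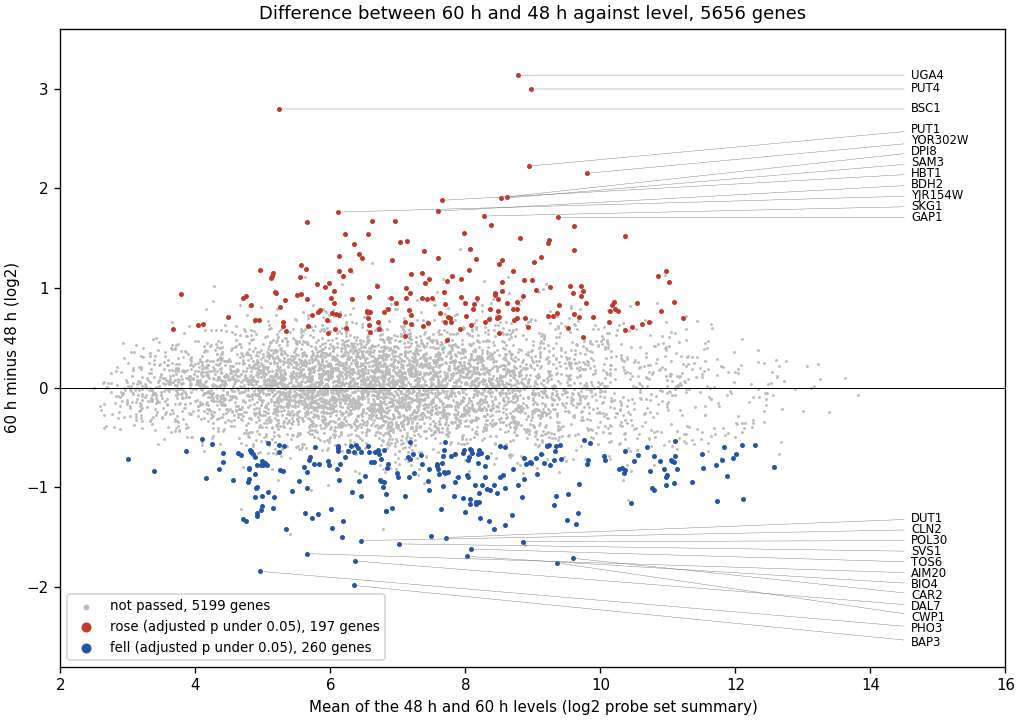
The difference between 60 h and 48 h on the log2 scale is plotted against the mean of the 48 h and 60 h levels, 1 point for each of 5656 genes, coloured by call. The 12 largest rises and falls are named, and UGA4 and PUT4 lie highest, at 3.14 and 3.00, followed by BSC1 at 2.80.

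The 2 largest rises were in permease genes for poor nitrogen sources. UGA4, the GABA permease, read 7.34, 7.53 and 6.77 on the 48 h arrays and 10.61, 9.68 and 10.76 on the 60 h arrays. Its rise of 3.14 ± 0.34 (SE, n = 3 a group) was 8.80-fold, with an adjusted p of 4.53e-05. All 3 of its probe sets rose, by 2.66 to 3.14, including 1 that is not of the type marked as shared by similar sequences. PUT4, the proline permease, read 8.16, 7.79 and 6.48 at 48 h and 10.67, 10.37 and 10.38 at 60 h, a rise of 3.00 ± 0.34 with an adjusted p of 5.31e-05. PUT1, the mitochondrial proline oxidase, went from 7.77, 8.51 and 7.21 to 10.22, 9.76 and 10.17, a rise of 2.22 ± 0.24 with an adjusted p of 4.47e-05. For these genes every 60 h array was above every 48 h array by more than 1 unit, and the array of 48 h replicate 3 was the lowest of the 6. The 3 calls held without any 1 of the 6 arrays and on both other scales.

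Further along the same route, PUT2, the second proline-degrading enzyme, rose by 0.85 ± 0.19 with an adjusted p of 0.0111, which became 0.0673 without 48 h replicate 3 and 0.0643 without 60 h replicate 1. The activator of the pathway, PUT3, differed by -0.28 ± 0.18 and did not pass. Thus 3 of the 4 proline genes rose, a list drawn up after these values were seen. Of the 5 genes of GABA uptake and breakdown, likewise listed afterwards, UGA4 alone passed. The enzymes UGA1 and UGA2 differed by 0.59 ± 0.26 and 0.68 ± 0.26.

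GAP1, the general amino acid permease, read 9.25, 8.75 and 7.56 at 48 h and 10.36, 10.04 and 10.29 at 60 h, a rise of 1.71 ± 0.31 with an adjusted p of 0.00207. The 60 h arrays were close together, while the 48 h arrays spread over more than 1 unit with replicate 3 lowest. MEP2, the high-affinity ammonium permease, followed the same order of arrays with 9.55, 9.31 and 7.88 against 10.54, 9.81 and 10.52, a rise of 1.38 ± 0.32 with an adjusted p of 0.0126. That p became 0.0643 without 60 h replicate 1 and 0.051 without 60 h replicate 3. DAL80, a GATA repressor that is itself under nitrogen control, rose from 5.44, 5.51 and 5.37 to 7.26, 6.52 and 7.18, by 1.55 ± 0.22 with an adjusted p of 0.000293. Its 48 h arrays agreed within 0.2 of each other and none of them reached a 60 h value. Both GATA activators missed the pass mark, GLN3 at 0.36 ± 0.22 and GAT1 at 0.73 ± 0.27.

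Among 25 amino acid permeases 8 rose and 3 fell, with a median difference of 0.29 against 0.02 for all genes. ALP1, an arginine transporter, rose by 1.55 ± 0.22, and its call held without any 1 of the 6 arrays. BAP2, a leucine permease, rose by 0.75 ± 0.18, and its adjusted p was 0.0687, 0.0704, 0.0503 and 0.101 without 48 h replicates 2 and 3 and 60 h replicates 1 and 2. The vacuolar exporter AVT3 rose by 0.77 ± 0.19 and missed the pass mark without 48 h replicate 3 (0.118), 60 h replicate 1 (0.101) or 60 h replicate 2 (0.0641). AVT4, a related exporter, rose by 0.79 ± 0.23 and passed without 60 h replicate 2 but not without any other of the 6 arrays (0.062 to 0.181). Leaving out single arrays left 5 to 8 rises, fewest without 48 h replicate 3 or 60 h replicate 1, and the 3 falls each time. SAM3, the S-adenosylmethionine permease, rose by 1.90 ± 0.26 with an adjusted p of 0.000276, and its 48 h values of 7.89, 7.62 and 7.24 lay well below the 9.38, 9.69 and 9.38 of 60 h. Its 5 probe sets ran from 0.28 to 2.83. The 3 that passed are of the shared type, and the 2 that are not, at 0.62 ± 0.21 and 0.28 ± 0.18, did not pass, so the call rests on sets that may also read similar genes.

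The 3 permeases that fell carry preferred amino acids. BAP3, which carries branched-chain and other large neutral amino acids, had the largest fall of all genes, from 7.35, 7.12 and 7.55 to 5.36, 5.54 and 5.17. That is 1.98 ± 0.26 lower at 60 h, 3.96-fold, with an adjusted p of 0.000173, and the groups were separated by more than 1.5 units. MUP1, the high-affinity methionine permease, fell by 1.49 ± 0.28 with an adjusted p of 0.00359, from 8.54, 8.44 and 7.74 to 6.77, 7.20 and 6.29. GNP1, a glutamine permease, fell by 1.10 ± 0.17. BAP2 and BAP3, a pair of related permeases, differed in direction.

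Nitrogen catabolite repressed genes did not move as a block. The list of 32 such genes held 7 rises and 4 falls, and its median was 0.23. The falls were in arginine and allantoin use. CAR2, ornithine transaminase, read 10.75, 10.59 and 10.01 at 48 h and 8.28, 8.98 and 8.95 at 60 h, a fall of 1.71 ± 0.21 with an adjusted p of 9.72e-05. CAR1, arginase, the step before it, fell by 1.15 ± 0.25 with an adjusted p of 0.00924, which became 0.0517 without 48 h replicate 2 and 0.057 without 60 h replicate 1. DAL7, a malate synthase expressed with the allantoin genes, fell by 1.74 ± 0.32, from 7.61, 7.37 and 6.71 to 5.78, 5.37 and 5.33, with an adjusted p of 0.00289. All 60 h arrays of CAR2 and DAL7 were below all 48 h arrays.

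Several allantoin genes lie side by side on chromosome IX. In the order of the RefSeq R64 annotation, DAL1 differed by -0.71 ± 0.28, DAL4 by -0.44 ± 0.18, DAL2 by -0.41 ± 0.22, DCG1 by -0.90 ± 0.18, DAL7 by -1.74 ± 0.32 and DAL3 by 0.36 ± 0.24. Within this cluster DCG1, with an adjusted p of 0.00504, and DAL7 passed. DUR3, the urea permease, differed by -0.90 ± 0.29 with an adjusted p of 0.0675.

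**Figure D2:**
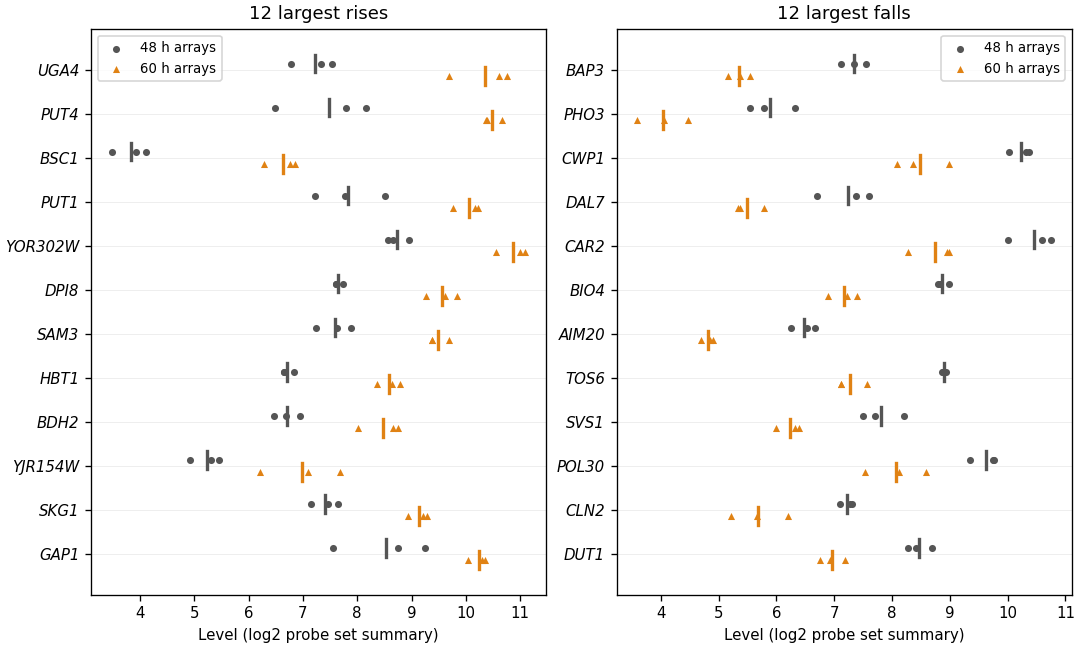
Levels of the 12 largest rises (left) and 12 largest falls (right) on the log2 scale, with 1 symbol for each array, circles for 48 h and triangles for 60 h, and a bar at each group's mean. No 48 h symbol overlaps a 60 h symbol in any of the 24 genes, which was a condition of their choice. The 48 h values of PUT4 and GAP1 are the most spread, with replicate 3 lowest at 6.48 and 7.56.

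The G1 cyclins CLN1 and CLN2 fell, as did 20 of 43 genes driven by SBF and MBF. CLN2, a G1 cyclin, read 7.09, 7.30 and 7.27 at 48 h and 5.21, 5.66 and 6.19 at 60 h, a fall of 1.53 ± 0.24 with an adjusted p of 0.000719. CLN1, its close relative, went from 6.70, 6.82 and 6.67 to 5.30, 5.01 and 5.64, a fall of 1.41 ± 0.19 with an adjusted p of 0.00023. In both, the 48 h arrays agreed closely and all 60 h arrays lay well below them, with replicate 3 the highest. PCL1, a cyclin of the kinase Pho85, fell by 1.42 ± 0.25 and CLB2, a mitotic cyclin, by 1.05 ± 0.18. CLN3, the cyclin that acts upstream of CLN1 and CLN2, differed by 0.50 ± 0.33 with an adjusted p of 0.386, and its groups overlapped. In all, 8 of 25 cyclins and cell cycle regulators fell and none rose, with a median of -0.42; 5 or 6 of them fell when any 1 array was left out.

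Targets of SBF and MBF, a list drawn up after the values were seen, showed 20 falls among 43 genes, no rise and a median of -0.47. With 1 array left out 13 to 15 fell, fewest without 60 h replicate 1. POL30, the sliding clamp of DNA polymerase, read 9.77, 9.75 and 9.35 at 48 h and 7.53, 8.11 and 8.59 at 60 h, a fall of 1.55 ± 0.24 with an adjusted p of 0.000719. DUT1, which removes dUTP, went from 8.28, 8.41 and 8.69 to 6.76, 6.92 and 7.19, a fall of 1.50 ± 0.20 with an adjusted p of 0.000189. For POL30 the 3 arrays at 60 h spanned 1 unit, while for DUT1 they lay within 0.5 units of each other. TOS6, a cell wall protein gene, read 8.93, 8.87 and 8.88 and then 7.12, 7.12 and 7.57, a fall of 1.62 ± 0.20 with an adjusted p of 0.000126. SVS1 fell by 1.57 ± 0.22 with an adjusted p of 0.000293, and its groups did not overlap.

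Most of the replication machinery did not pass. Of 39 replication genes 4 fell (10.3%), against 4.60% of all genes, with a median of -0.24. The 4 falls (POL30, RFA3, POL1 and RNR1) are all on the list of SBF and MBF targets. RFA3 missed the pass mark without 60 h replicate 1 (0.0503), and RNR1 without every array but 60 h replicate 3 (0.0564 to 0.134). POL1, the catalytic subunit of the polymerase that starts DNA strands, fell by 0.92 ± 0.18 with an adjusted p of 0.00493. The 4 histone genes with a probe set of their own were all lower at 60 h, with a median of -0.92. Of these HTB2 fell by 1.03 ± 0.22 and HTZ1 by 1.03 ± 0.18. The others did not pass, and HTB1, at -0.30 ± 0.16, differed least. The call of HTB2 had an adjusted p of 0.0567 without 48 h replicate 3.

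Most genes of purine and one-carbon synthesis fell, 13 of 21, with none rising and a median of -0.71. ADE1 of the adenine pathway read 9.08, 8.77 and 9.19 at 48 h and 7.39, 7.60 and 8.05 at 60 h, a fall of 1.33 ± 0.25 with an adjusted p of 0.00305. SHM2, the cytosolic serine hydroxymethyltransferase, went from 10.17, 10.16 and 10.57 to 9.07, 8.95 and 9.09, a fall of 1.26 ± 0.18 with an adjusted p of 0.000293. No 60 h array of either gene reached a 48 h array. ADE17 fell by 1.17 ± 0.20 and GCV1, of the glycine cleavage complex, by 1.11 ± 0.17. SHM1, the mitochondrial counterpart of SHM2, differed by 0.29 ± 0.17 and did not pass. From 9 to 11 of the 21 fell when an array was left out, and none on the scale of the reference genes.

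Other amino acid pathways changed in a few enzymes each. In lysine synthesis 2 of 9 genes fell: LYS9 by 1.42 ± 0.23, from 8.92, 9.19 and 9.30 to 7.83, 7.44 and 7.86, and LYS12 by 0.73 ± 0.15. In serine synthesis SER2 fell by 1.09 ± 0.17 and SER33 by 1.05 ± 0.16. In sulfate assimilation MET3, ATP sulfurylase, fell by 1.09 ± 0.17. Of 12 genes of branched-chain amino acid synthesis 2 rose and 1 fell. LEU1, of leucine synthesis, rose by 1.17 ± 0.21, from 7.98, 8.46 and 7.95 to 9.16, 9.17 and 9.55, and LEU2, of the same pathway, by 0.77 ± 0.15, while BAT2, the cytosolic branched-chain transaminase, fell by 0.89 ± 0.17. These 3 branched-chain calls held without any 1 of the 6 arrays. None of 7 histidine synthesis genes passed.

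Of 80 ribosomal protein genes 31 fell and none rose. Of 47 large subunit protein genes with a probe set of their own 18 fell, and of 33 small subunit genes 13 fell, with medians of -0.60 and -0.62 and no rise. The other 34 of 81 and 23 of 56 listed genes had no such probe set. Of the 80 genes measured, 30 are on sets of the type marked as shared by similar sequences, so their falls are not all independent of each other. The median level of all 80 genes was 11.3, 11.3 and 11.6 on the 48 h arrays and 10.8, 10.8 and 10.7 on the 60 h arrays, without overlap. RPS26B read 9.29, 9.33 and 9.35 and then 8.09, 8.32 and 7.73, a fall of 1.28 ± 0.24 with an adjusted p of 0.0029. RPS22A fell by 1.12 ± 0.19 and RPL22B by 0.98 ± 0.20. Among probe sets shared by several ribosomal protein genes, most often a pair of near-identical copies, 17 of 59 fell and none rose.

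The ribosomal protein count depended on single arrays and on scaling. Of the 80 genes 13 to 24 fell when an array was left out against 31 with all 6, with the fewest, 13, without 48 h replicate 3, then 17 without 60 h replicate 1, 19 without 60 h replicate 3 and 20 without 48 h replicate 2. None fell on the scale of the reference genes, where their median was -0.38 against 0.24 for all genes. Short genes fell more often in general: with coding genes split into 5 equal classes by coding length, 6.56% of the shortest class fell against 1.19% of the longest, with medians of -0.10 and 0.08, and length and difference had a Spearman rho of 0.17 across 5486 genes. With genes centred in classes of like coding length, 28 of the 80 ribosomal protein genes fell. The ACT1 and SPT15 values for the 5′ extent of labelled RNA moved between the same times, and their part in these falls was not tested.

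Some noncoding RNA genes fell as well. Among 91 nuclear tRNA genes 40 fell and none rose, with a median of -0.66; the median level was 6.78, 6.85 and 7.04 at 48 h and 6.22, 6.45 and 6.66 at 60 h. All but 3 of these tRNA genes are on probe sets of the shared type, so they are not independent of each other, and the 3 others did not pass. From 13 to 33 fell when an array was left out, with 13 without 60 h replicate 1 and 19 without 48 h replicate 2. Of 60 small nucleolar and spliceosomal RNAs 9 fell, with a median of -0.38, and 2 to 9 did so without an array, fewest without 48 h replicate 3 or 60 h replicate 1. The 18S and 25S ribosomal RNA controls differed by -0.71 (exact p = 0.4) and -0.83 (exact p = 0.3), and the part of those values in the tRNA and nucleolar RNA falls was not tested.

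Few genes of ribosome assembly passed. Of 132 assembly factors 3 fell, against 4.60% of all genes, and none rose, with a median of -0.05. One of the 3, UTP22, differed by -0.62 on its main probe set and by 0.0800 when its 6 probe sets were averaged, and 1 or 2 of the 132 fell when an array was left out. Of 34 genes of RNA polymerases I and III, 1 rose and 1 fell. Of 21 cytosolic tRNA synthetases 2 fell (9.52%, against 4.60% of all genes), with a median of -0.35. One of them, TYS1, which charges tyrosine tRNA, fell by 1.01 ± 0.20 with an adjusted p of 0.00493. None of 54 mitochondrial ribosomal protein genes passed, with a median of -0.07.

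**Figure D3:**
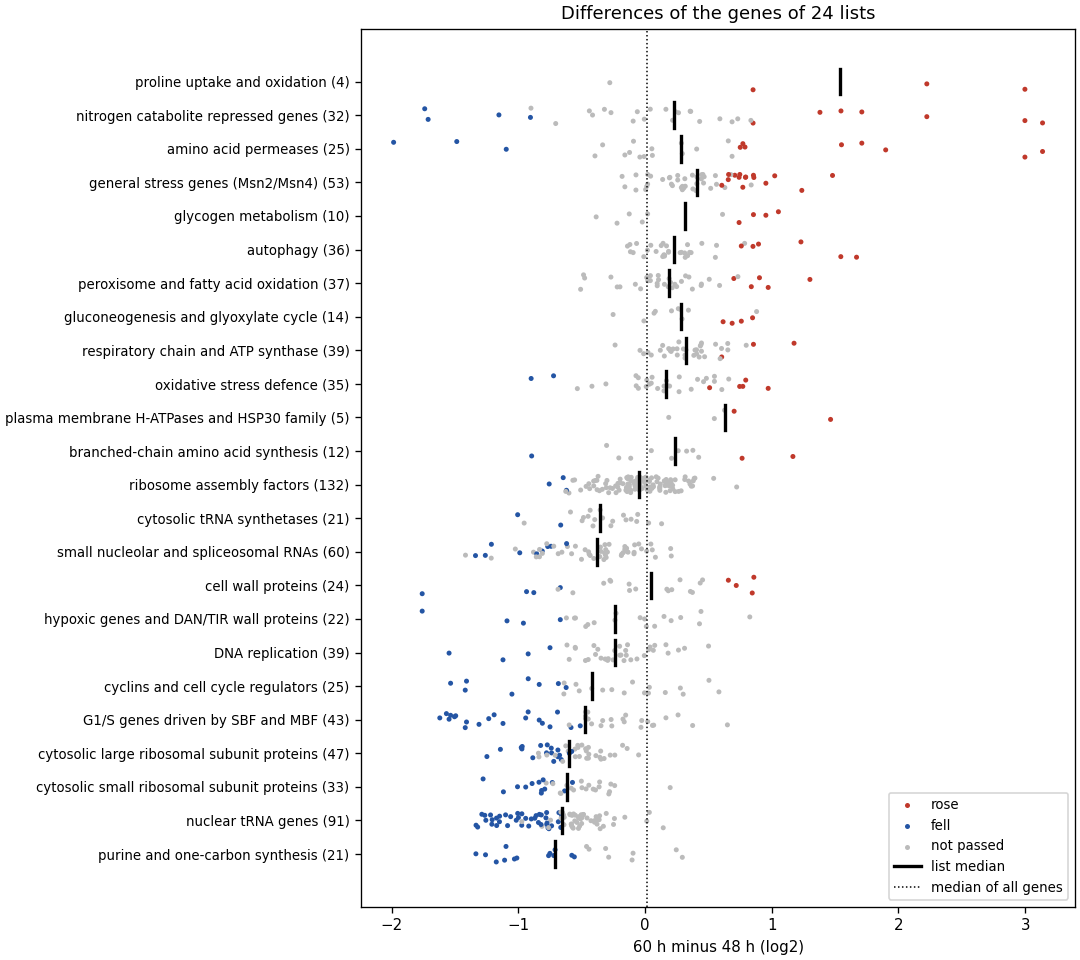
Each point is 1 gene of a list, placed by its difference between 60 h and 48 h on the log2 scale and coloured by call, with a bar at the list's median, the number of genes measured in parentheses and a dotted line at the median of all genes, 0.02. Ribosomal protein, tRNA and purine lists lie left of that line, at medians from -0.60 to -0.71, while the nitrogen and permease lists spread widely to both sides.

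Stress protection genes rose in part. Of 53 genes of the Msn2 and Msn4 response 15 rose and none fell, with a median of 0.41, and 49 of the 53 had positive differences. HSP26, a small heat shock protein that holds unfolded proteins, read 8.36, 8.10 and 9.03 at 48 h and 10.18, 10.02 and 9.73 at 60 h, a rise of 1.48 ± 0.25 with an adjusted p of 0.00153. GND2, a phosphogluconate dehydrogenase, rose by 1.24 ± 0.19 and MSC1 by 1.02 ± 0.19, and the 3 calls held without any 1 array. HSP12 and HSP104, well-known stress proteins, did not pass: HSP12 differed by 0.63 ± 0.20 with an adjusted p of 0.0552 and HSP104 by 0.04 ± 0.19 with overlapping groups. The factors MSN2 and MSN4 differed by 0.39 ± 0.21 and 0.68 ± 0.26. The count of 15 was 14 without 48 h replicate 1, 5 without 48 h replicate 2, 6 without 48 h replicate 3, 5, 7 and 8 without each 60 h array in turn, 10 with arrays centred on their medians and 4 on the scale of the reference genes.

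Glycogen and membrane stress genes were also among the rises. GAC1, which targets a phosphatase to glycogen synthase, read 7.06, 7.09 and 6.48 at 48 h and 8.00, 7.82 and 7.96 at 60 h, a rise of 1.05 ± 0.21 with an adjusted p of 0.00493. It was 1 of 4 rises among 10 glycogen genes, and 1 to 3 rose when an array was left out, as did 1 on the scale of the reference genes. HSP30, a membrane protein that restrains the plasma membrane proton pump, read 6.61, 6.05 and 6.24 and then 7.60, 7.64 and 8.05, a rise of 1.46 ± 0.24 with an adjusted p of 0.00092. The pump itself, PMA1, differed by 0.55 ± 0.28 with an adjusted p of 0.257, although its 60 h arrays were all above its 48 h arrays. Of 10 genes of trehalose metabolism none rose and 1 fell.

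Autophagy genes rose in 6 of 36 cases, with none falling and a median of 0.23. ATG15, the lipase that opens autophagic bodies in the vacuole, read 5.93, 5.73 and 5.66 at 48 h and 7.19, 7.57 and 7.57 at 60 h, a rise of 1.67 ± 0.29 with an adjusted p of 0.00189, and its 3 probe sets rose by 1.44 to 1.80. ATG39, the receptor for autophagy of the nucleus, went from 6.04, 5.98 and 5.34 to 7.76, 7.12 and 7.11, a rise of 1.54 ± 0.22 with an adjusted p of 0.000393. Both genes had every 60 h array a full unit above every 48 h array. ATG45, a receptor for glycogen, rose by 0.90 ± 0.15. ATG8, whose protein coats the autophagosome, differed by 0.19 ± 0.25. Without single arrays 3 to 5 of these genes rose, fewest without 48 h replicate 2 or 48 h replicate 3, and 2 on the scale of the reference genes.

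Peroxisome and fatty acid oxidation genes gave 5 rises among 37 (13.5%), against 3.48% of all genes. CRC1, the mitochondrial carnitine carrier, read 6.02, 5.75 and 5.67 and then 7.00, 7.40 and 6.93, a rise of 1.30 ± 0.20 with an adjusted p of 0.000637. FOX2, of peroxisomal beta-oxidation, rose by 0.90 ± 0.21 with an adjusted p of 0.0144, and 0.0669 without 48 h replicate 2 and 0.0526 without 60 h replicate 3. None of the 19 peroxins, the PEX proteins that build peroxisomes, was among the 5 rises. From 2 to 4 of the 37 rose when an array was left out.

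None of 13 glycolytic enzymes passed, with a median of 0.01, and PDC1 and ADH1, the main enzymes of ethanol formation, differed by -0.09 ± 0.17 and 0.15 ± 0.14. HXK2, the hexokinase that also acts in glucose repression, fell by 1.06 ± 0.20 with an adjusted p of 0.00359, from 9.88, 10.37 and 9.92 to 8.91, 9.03 and 9.04, while HXK1 and GLK1, the other two kinases, differed by 0.00 ± 0.19 and 0.30 ± 0.18 on probe sets of their own. A probe set that matches both GLK1 and YCL042W rose by 2.18 ± 0.53 with an adjusted p of 0.0253 over all probe sets. HXT6, a high-affinity hexose transporter, rose by 1.06 ± 0.28 with an adjusted p of 0.0234, but its probe set is of the shared type and its call was lost without any 1 of the 6 arrays, at 0.0569 to 0.0984. HXT1, a low-affinity transporter, differed by -0.57 ± 0.25 with overlapping groups. MDH2, the cytosolic malate dehydrogenase of gluconeogenesis, rose by 0.85 ± 0.17 with an adjusted p of 0.0047, 1 of 4 rises among 14 genes of that list. That count was 1 or 2 without any 1 array, and 1 on the scale of the reference genes. Of 18 pyruvate, alcohol and acetate enzymes 3 rose (16.7%), against 3.48% of all genes. Among them BDH2, a butanediol dehydrogenase homologue, rose by 1.77 ± 0.29, from 6.95, 6.47 and 6.69 to 8.01, 8.75 and 8.66.

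Few respiratory genes passed. Of 39 subunits of the respiratory chain and ATP synthase 3 rose (7.69%), against 3.48% of all genes. Their median was 0.32, and 36 of 39 had positive differences. CYB2, the mitochondrial lactate dehydrogenase, read 9.51, 8.96 and 7.92 at 48 h and 10.62, 10.52 and 10.13 at 60 h, a rise of 1.63 ± 0.44 with an adjusted p of 0.0296. The array of 48 h replicate 3 was again lowest, and without it the adjusted p was 0.168. Without 48 h replicate 2 and each 60 h array in turn it was 0.0669, 0.111, 0.098 and 0.051. None of the 39 respiratory subunits passed without 48 h replicate 3 or any 60 h array. HAP4, the limiting activator of respiratory genes, differed by 0.72 ± 0.31 with an adjusted p of 0.17.

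At the cell surface 4 wall protein genes rose and 4 fell among 24. Without single arrays 0 to 2 rose, none without 48 h replicate 2, and 1 to 3 fell, fewest without 60 h replicate 2, and none passed on the scale of the reference genes. CWP1, a mannoprotein of the wall, read 10.37, 10.02 and 10.33 at 48 h and 8.08, 8.37 and 8.99 at 60 h, a fall of 1.76 ± 0.29 with an adjusted p of 0.00099. AAC3, the ADP/ATP carrier made without oxygen, fell by 1.09 ± 0.19, from 7.43, 7.72 and 7.81 to 6.61, 6.21 and 6.87. A list of 22 genes, hypoxic genes together with wall mannoproteins of the DAN, TIR and CWP kinds, held 4 falls and no rise. CWP1, which is on the wall list as well, CWP2 and AAC3 were among the falls, so they are not a count of hypoxic genes alone. The 4 falls were 2 without 48 h replicate 3, 5 without 60 h replicate 3 and 0 on the scale of the reference genes. None of 10 seripauperin genes measured passed, with a median of -0.48. All 10 are on probe sets of the shared type, so they are not separate measurements of 10 genes. Outside these counts, a set matching PAU22, PAU19 and PAU21 rose by 0.92 ± 0.23, with an adjusted p by limma of 0.0255 over all probe sets. The other sets that match several seripauperin genes, at -0.73 to -0.24, did not pass. None of 28 sterol synthesis genes passed.

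Vitamin, lipid and phosphate genes account for several further large changes. BIO4, dethiobiotin synthetase, read 8.83, 8.98 and 8.79 and then 7.23, 6.90 and 7.40, a fall of 1.69 ± 0.23 with an adjusted p of 0.000276. Its neighbour on chromosome XIV, BIO3, the preceding enzyme, fell by 0.73 ± 0.22 with an adjusted p of 0.0497, which was between 0.06 and 0.211 without any 1 of the 6 arrays. PHO3, an acid phosphatase repressed by thiamine, went from 5.78, 5.55 and 6.33 to 4.06, 3.59 and 4.47, a fall of 1.84 ± 0.29 with an adjusted p of 0.000699. PHO5, the phosphate-repressed acid phosphatase next to it on chromosome II, fell by 1.33 ± 0.21, and whether probe sets of these similar genes share signal was not tested.

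ELO3, an elongase of very long fatty acids, fell by 1.37 ± 0.19 with an adjusted p of 0.000293, from 10.29, 10.45 and 10.21 to 9.02, 8.89 and 8.92. INO1, which makes inositol phosphate, rose by 1.31 ± 0.26 with an adjusted p of 0.00549, from 8.52, 8.62 and 8.23 to 10.07, 10.18 and 9.04. PHM8, a phosphatase of the phosphate regulon, rose by 1.26 ± 0.25 with an adjusted p of 0.00456. The groups of all 3 genes did not overlap, and their calls held without any 1 of the 6 arrays.

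Of the remaining largest rises most have no role that is given here. BSC1 read 4.10, 3.93 and 3.48 at 48 h and 6.76, 6.29 and 6.86 at 60 h, a rise of 2.80 ± 0.54 with an adjusted p of 0.0043. YOR302W, a short open reading frame beside CPA1 on chromosome XV, rose by 2.15 ± 0.32, from 8.56, 8.65 and 8.96 to 10.99, 10.55 and 11.09. CPA1, a subunit of carbamoyl phosphate synthetase, rose by 0.70 ± 0.15 (adjusted p = 0.0604 without 60 h replicate 1). Whether the probe sets of YOR302W and CPA1 read the same transcript was not tested. The part of the 5′ extent of labelled RNA in the larger rise was not tested either. DPI8 rose by 1.92 ± 0.27 and HBT1 by 1.88 ± 0.22. Their 48 h arrays agreed within 0.2 units in each gene, and all 60 h arrays were above 8. SKG1 rose by 1.72 ± 0.22, although its second probe set, at 0.81 ± 0.34, did not pass. YJR154W rose by 1.76 ± 0.43 with an adjusted p of 0.018, from 5.45, 4.93 and 5.31 to 6.20, 7.09 and 7.68. That p was 0.0736 without 48 h replicate 2, 0.055 without 48 h replicate 3, 0.0644 without 60 h replicate 2 and 0.0841 without 60 h replicate 3. Among the falls AIM20 went from 6.53, 6.67 and 6.25 to 4.69, 4.85 and 4.90, by 1.67 ± 0.17 with an adjusted p of 3.44e-05.

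The falls that remained on the scale of the 5 reference genes were few. The 12 genes were BAP3, DAL7, CAR2, AIM20, TOS6, SVS1, POL30, CLN2, PRY2, MUP1, YAR068W and ELO3, at -1.77 for BAP3 to -1.16 for ELO3 and YAR068W. The reference genes ALG9, TAF10, TFC1, UBC6 and TRS65 differed by 0.28, -0.22, -0.03, 0.06 and -0.35 on the deposited scale, and none passed. Their median level read 8.24, 8.43 and 8.06 on the 48 h arrays and 8.26, 8.16 and 7.65 on the 60 h arrays. It was the level of TAF10, which differed by 0 on that scale, so the scale follows TAF10 and not the other reference genes. The 60 h array of replicate 3 was the lowest of the 6, and this spread enters every value on that scale.

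To compare this step with the one before it, the difference of 60 h minus 48 h was set against that of 48 h minus 24 h in 1 contrast. Both differences use the 48 h arrays, and the first step lasted 24 h and the second 12 h. The steps differed for 118 of 5656 genes (2.09%), with the second step higher for 32 and lower for 86. That count was 18, 29 and 61 without 48 h replicates 1, 2 and 3, 73 and 60 without 60 h replicates 1 and 2, and 71 and 224 without 24 h replicates 2 and 3. UGA4 went from 6.55 ± 0.17 at 24 h to 7.21 ± 0.40 at 48 h and 10.35 ± 0.59 at 60 h (SD, n = 3), a step higher by 2.47 ± 0.59 (SE) with an adjusted p of 0.039, which missed the pass mark without any 48 h array (0.0857 to 0.203), 24 h replicate 2 (0.0635), 60 h replicate 1 (0.085) or 60 h replicate 3 (0.0771). It then read 9.09 ± 0.78 at 120 h. SAM3 was at 7.63 ± 0.53, 7.58 ± 0.33, 9.48 ± 0.18 and 7.57 ± 0.41 at 24, 48, 60 and 120 h, so that its rise was seen at 60 h alone of these times. Its steps differed by 1.95 ± 0.45 with an adjusted p of 0.0316, on a probe set of the shared type. That call was not checked with single arrays left out.

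PUT4, PUT1 and GAP1 rose in the second step without passing this test, and their first steps were 1.29, 1.59 and 1.96. DAL7 differed by 1.92 in the first step and by -1.74 in the second, and read 5.47 ± 0.69 at 120 h. Its steps differed by -3.66 ± 0.56 with an adjusted p of 0.00262. CAR1 had the same order, with 9.07 ± 0.30, 11.03 ± 0.48 and 9.87 ± 0.38 at 24, 48 and 60 h and a difference of -3.11 ± 0.44. CLN2 had a first step of 0.37 before its fall, and its steps differed by -1.90 ± 0.42 with an adjusted p of 0.0232. This call of CLN2 was not checked with single arrays left out.

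**Figure D4:**
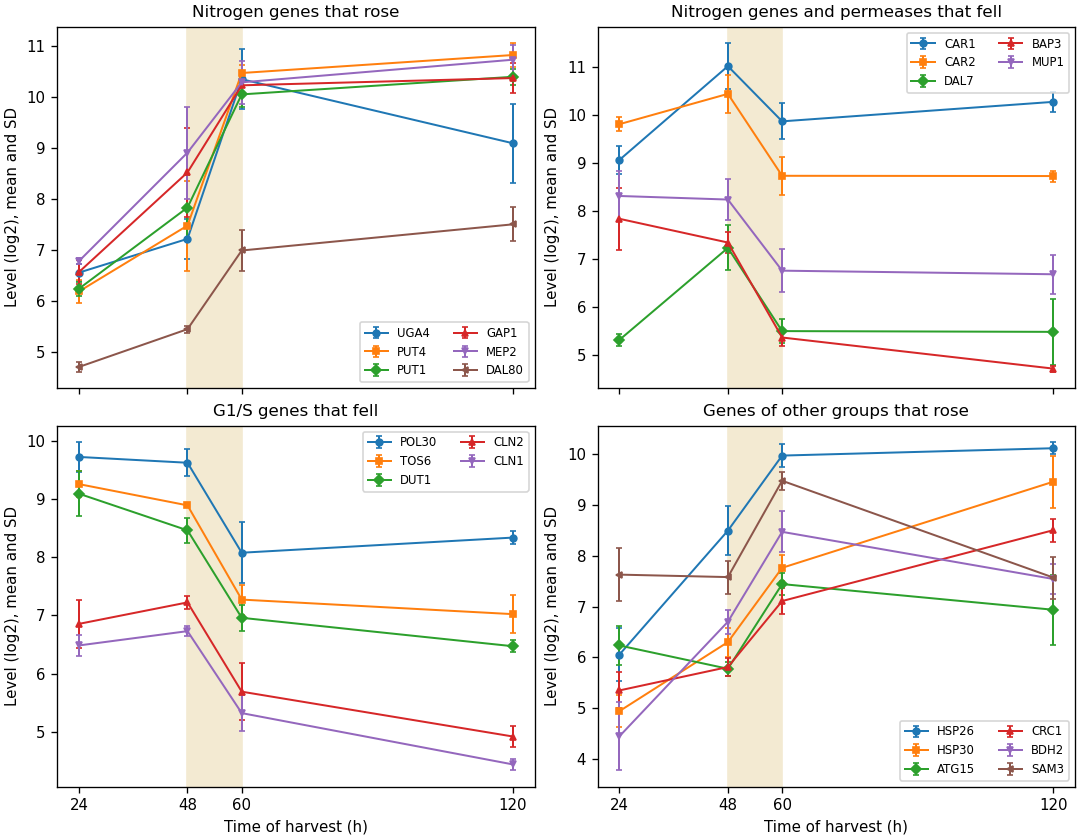
Mean levels with SD over 3 arrays at 24, 48, 60 and 120 h for 22 genes in 4 panels on the log2 scale, with the interval from 48 to 60 h shaded. PUT4, PUT1, GAP1, MEP2 and DAL80 were higher still at 120 h than at 60 h, while UGA4 went from 10.35 to 9.09, CAR1 and DAL7 peaked at 48 h, and SAM3 peaked at 60 h.

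**Figure D5:**
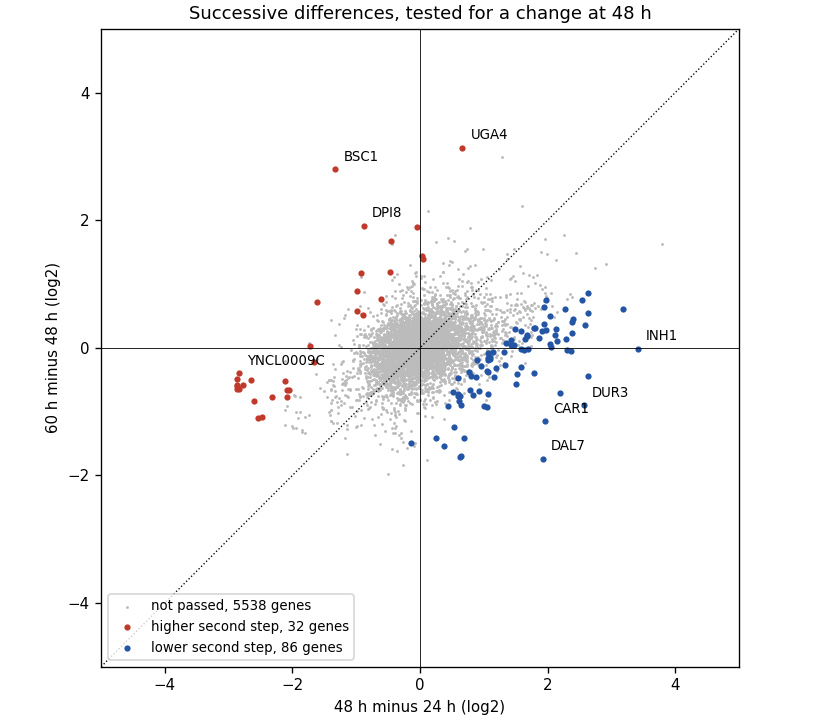
Each gene's difference of 60 h minus 48 h is plotted against its difference of 48 h minus 24 h, both on the log2 scale, with a dotted line where the steps are equal. Coloured points passed the test of unequal steps, 32 higher and 86 lower in the second step, and the 4 genes with the largest values on each side are named.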

How the data were processed

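The authors deposited log2 summaries, 1 value for each probe set and array, which RMA and affy produced per the submitters' processing notes. Versions, settings and which arrays were scaled together are not given in the sources used here. Values ran from 2.01 to 14.1. Of 9335 probe sets, 60 are controls, 2443 carry no gene in the annotation supplied and 328 match several genes. The probe set with the highest mean over 21 arrays stood for each of 5656 genes, 315 of which have several and 284 a set of the shared type. Group means of the 15 arrays of 24, 48, 60, 120 and 340 h entered 1 linear model (limma 3.58.1, R 4.3.3; lmFit and eBayes), so that the spread comes from all 5 times, and p-values were adjusted by Benjamini-Hochberg over 5656 genes. The script was tested on simulated data with known changes. Named genes are the 12 largest rises and falls that passed without overlap of the groups, up to 4 members of each list, the 4 largest values of the step contrast in each direction and a fixed list of well-known genes; other genes named, such as passing permeases and list members that did not pass, were chosen after their values were seen. The members and the 63 gene lists were chosen with earlier results of these data known, and 7 lists were added later. Replicate numbers were not used to pair the arrays in this model. Deviations of same-numbered arrays at 48 and 60 h correlated at 0.04, 0.09 and 0.40. Replicate 3 thus shared part of its deviations, and it had the lowest median level at both times (6.67 and 6.71). Whether same-numbered arrays share a fermentation was not tested. Gene names follow RefSeq R64.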

Additional observations from a re-analysis of the deposited data

Results flagged for a closer look

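The 8 genes below had the largest differences between the steps of 60 h minus 48 h and 48 h minus 24 h among the genes that passed the test of that difference. The second step was higher by 4.13 for BSC1, by 2.80 for DPI8, by 2.47 for UGA4 and by 2.45 for the tRNA gene YNCL0009C. BSC1 read 5.17 ± 1.47 at 24 h and 3.84 ± 0.32 at 48 h (SD, n = 3), and DPI8 8.54 ± 0.29 and 7.65 ± 0.07, and both rose from there to 60 h. The first steps were not tested on their own, and that of BSC1 lies within its SD at 24 h. Without 24 h replicate 1 the value of BSC1 was 3.35. YNCL0009C, on a probe set of the shared type, went from 8.17 ± 0.24 to 5.33 ± 0.22 in the first step, and its difference of -0.40 ± 0.25 in the second did not pass. The second step was lower by -3.66 for DAL7, -3.46 for the urea permease gene DUR3, -3.43 for INH1, an inhibitor of the mitochondrial ATP synthase, and -3.11 for CAR1. INH1 went from 5.88 ± 0.68 to 9.30 ± 0.20 and then read 9.29 ± 0.15 at 60 h. The call of BSC1 was lost without each 48 h array and without 60 h replicates 1 and 3, and that of UGA4 without 24 h replicate 2 and without every 48 h and 60 h array but 60 h replicate 2. YNCL0009C missed the pass mark without 48 h replicate 1 (adjusted p = 0.0536), and the calls of DPI8, DAL7, DUR3, INH1 and CAR1 held without any 1 array.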

How the results depend on the processing

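The 457 passing genes (197 higher, 260 lower) became 189 to 316 when 1 array of 48 or 60 h was left out, with 75 to 136 higher and 114 to 180 lower. The fewest came without 60 h replicate 1. With 48 h replicate 3 left out 223 passed. Without the other arrays the counts were 291 and 238 for 48 h replicates 1 and 2, and 250 and 316 for 60 h replicates 2 and 3. The 118 genes with unequal steps became 18 to 224, with 4 to 67 higher and 14 to 157 lower. With the replicate number as a block 646 genes passed (298 higher, 348 lower) and 217 had unequal steps (62 higher, 155 lower), and all 151 named calls were kept. With the 6 arrays fitted alone 837 passed (405 higher, 432 lower). Centred on the median level of the reference genes, which was that of TAF10, 123 passed (111 higher, 12 lower). On that scale 7 had unequal steps (2 higher, 5 lower), and 49 of 151 named calls were kept. Without probe sets of the shared type 15 genes had a higher second step. At an adjusted p under 0.01, 157 passed (61 higher, 96 lower). Classes of coding length, an alternative chosen after seeing the data, left 451 passing genes and 97 with unequal steps (39 higher, 58 lower). Averaging the 6 probe sets of UTP22, an assembly factor of the ribosome, turned its difference from -0.62 to 0.0800. The cause of these shifts was not tested. With 3 arrays a time the median SE was 0.20, and 1294 genes had an unadjusted p under 0.05, so many differences under 2-fold were not resolved.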

Other observations

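Probe sets that match several genes were not part of the gene counts. Over all 9275 probe sets that are not controls, in a fit of their own, 531 passed (5.73%), among them 14 that rose and 21 that fell of the 328 with several genes. A set matching YPS6 and YPS5, cell surface proteases known as yapsins, read 4.78, 4.84 and 4.64 at 48 h and 6.91, 6.53 and 6.97 at 60 h, a rise of 2.05 ± 0.21 (SE, n = 3 a group) with an adjusted p by limma of 6.11e-05. A set matching GLK1, glucokinase, and YCL042W rose by 2.18 ± 0.53 with an adjusted p of 0.0253. A set matching ALD2 and ALD3, cytosolic aldehyde dehydrogenases, rose by 0.93 ± 0.16. Of sets that match YOR343W-B and the same 9 other loci, 1 rose by 2.78 ± 0.55 and 1 by 2.09 ± 0.38. All 60 h arrays were above all 48 h arrays in both. The remaining sets of these loci did not pass, the highest of them at 1.71 with an adjusted p of 0.0645. Sets that match YOR343W-B within a different group of loci ran from -0.42 to 1.63, and only the highest passed. The largest fall of this kind was in a set matching RBH2, YBR013C, YDR034C-A and YAR068W. It went from 8.38, 8.36 and 8.42 to 6.29, 5.55 and 6.23. YAR068W, on a set paired with it alone, was lower by 1.32 to 1.42 with any 1 of the 6 arrays left out. Sets that match RBH2 but not YAR068W, at -0.49, 0.10 and 0.57, did not pass. A set matching HHF1 and HHF2, the genes of histone H4, fell by 0.81 ± 0.19. A set matching RPL40A and RPL40B fell by 1.60 ± 0.25, while sets of the same pair at -0.95 and -0.78 did not pass. In all, 16 other sets of ribosomal protein pairs fell. From such a set alone, which of its genes changed cannot be told apart.

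Among the 2443 probe sets that the annotation pairs with no gene, 48 passed (1.96%), with 23 higher and 25 lower at 60 h.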
